A study of Mus musculus with 4 samples.

Results

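*Ly6a*, *Anxa1*, *Anxa2*, *Anxa3*, *Clu*, *Il1rn*, *Ankrd1* and *Msln* are 8 genes known from regenerating and fetal-like intestinal epithelium. They were followed as a list of symbols among 36144 gene rows of a bulk RNA-seq count table of mouse colonic organoids, and all 8 were found. The organoids came from a single male mouse aged 24 weeks, given as WT in the sample labels, whereas the study describes Hes1-GFP Notch reporter mice and the use of proximal colon. They were sequenced at passage 3 as untreated cultures on day 2 (48 h) and day 3 (72 h) and as cultures given 2 mM sodium butyrate for 48 h or 72 h. Each of the 4 conditions was 1 library, so no difference could be set against replicate error and no p-values were computed. All cultures shared a crypt medium with EGF, noggin, R-spondin, the GSK3 inhibitor CHIR99021 and the ROCK inhibitor Y-27632, along with B27 and N2 supplements.

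When the intestinal epithelium is injured, part of it leaves its adult programme for a time and expresses genes typical of the fetal gut. The transcriptional co-activator YAP, which the Hippo kinases restrain and which binds DNA through TEAD factors, is known to drive much of this state. *Ly6a* (Sca-1) and *Clu* (clusterin) are used as surface and cell-state markers of it, the annexins bind membranes in a calcium-dependent manner and take part in mucosal repair, and *Ankrd1* is a standard YAP target. The question here was whether butyrate, a bacterial fermentation product and histone deacetylase inhibitor, went with higher or lower levels of these genes.

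Library totals lay between 20790225 and 24207840 counts, and mitochondrial genes took 14.1% to 18.4% of them. Counts were divided by DESeq2 size factors ("normalised counts"), and log2 fold changes were taken after adding 1. Ranges in brackets are 95% exact Clopper-Pearson intervals on a pair of counts, unless a Wald interval is named. They cover counting error only, since each condition was 1 library. Reads lacked molecular identifiers and may repeat the same molecule, so the ranges may be too narrow even for counting error. All 10 epithelial marker genes, *Epcam* among them, were abundant in every library, with summed normalised counts of 151820 to 169609. In bulk RNA, fewer cells of a type and less RNA per cell cannot be told apart.

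Per kb of exon, the 8 genes spanned most of the range of expression in these cultures. *Anxa2* was the highest, at a mean of 8047 normalised counts per kb over the 4 libraries, at or above 98.9% of 13933 genes compared. *Ly6a* followed with 5239 per kb, at or above 98.4% of genes. *Il1rn* (2068 per kb) and *Anxa1* (1973 per kb) were close to each other, and their order was not constant, since *Anxa1* was the higher in the untreated library at 72 h (2408 against 2246 per kb). Then came *Anxa3* at 768, *Clu* at 452 and *Msln* at 290 per kb. *Ankrd1* lay at the bottom with 3.13 per kb, at or above 2.93% of genes, so that a standard YAP target was close to silent while 4 other members were among the top 5% of genes.

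The start regions of the members bear on the factors named above, and RefSeq start sites of the GRCm38.p6 build were matched for 4 of the 8 members (*Anxa1*, *Anxa2*, *Il1rn* and *Ankrd1*). The 250 bases before each start site were searched on both strands for GGAATG, a core of the TEAD binding site, and for TGANTCA, the AP-1 site. These letters do not overlap each other. GGAATG stood in 12.6% and TGANTCA in 6.75% of 32817 such windows of all genes. The *Ankrd1* window (minus strand, chr19:36119845-36120094) held GGAATG at 2 places, beginning 210 and 123 bases before the start. The *Anxa1* window (minus strand, chr19:20390672-20390921) held its reverse complement 236 bases before the start. The *Anxa2* window (plus strand, chr9:69453433-69453682) held TGANTCA 95 bases before the start, and the *Il1rn* window at its first listed start (plus strand, chr2:24336610-24336859) held it 141 bases before the start. *Il1rn* has 2 other listed starts, of which 1 held GGAATG. The windows are shown 5′ to 3′ with these matches in capitals, because the highest and the lowest member of the list are among them. A match describes the letters and not the binding of a factor.
Ankrd1: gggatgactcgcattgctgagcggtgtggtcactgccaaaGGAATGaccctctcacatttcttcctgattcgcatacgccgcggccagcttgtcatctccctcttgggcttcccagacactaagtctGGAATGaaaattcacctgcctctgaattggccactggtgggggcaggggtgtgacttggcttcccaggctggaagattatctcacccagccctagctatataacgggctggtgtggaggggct
Anxa1: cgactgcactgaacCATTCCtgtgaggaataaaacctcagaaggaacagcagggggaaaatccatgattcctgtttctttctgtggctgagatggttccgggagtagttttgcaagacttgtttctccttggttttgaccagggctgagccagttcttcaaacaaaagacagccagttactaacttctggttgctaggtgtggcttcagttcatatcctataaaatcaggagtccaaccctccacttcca
Anxa2: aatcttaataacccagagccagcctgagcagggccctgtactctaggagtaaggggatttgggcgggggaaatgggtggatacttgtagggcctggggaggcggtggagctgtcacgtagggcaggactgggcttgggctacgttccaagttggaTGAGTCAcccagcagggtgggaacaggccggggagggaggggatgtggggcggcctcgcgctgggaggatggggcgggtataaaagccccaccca
Il1rn: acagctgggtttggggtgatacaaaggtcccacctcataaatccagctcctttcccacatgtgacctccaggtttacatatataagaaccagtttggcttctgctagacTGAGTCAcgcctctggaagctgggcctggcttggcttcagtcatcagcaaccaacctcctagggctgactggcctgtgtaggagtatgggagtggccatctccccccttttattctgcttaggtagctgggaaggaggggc

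With butyrate the list split. *Ly6a* was about 1.4-fold to 1.5-fold higher at both times, *Msln* was 2.24-fold higher at 72 h, and *Anxa1*, *Anxa3* and *Clu* were lower at both times. *Anxa2* was nearly level at 48 h and lower at 72 h, *Il1rn* moved little and *Ankrd1* had too few counts to read. Over all 8 members the median log2 fold change of butyrate over untreated was −0.23 at 48 h and −0.23 at 72 h, beside medians of −0.01 and 0.00 over the 13979 genes that exceeded 10 counts in 2 or more libraries. The genes of the list passed that filter in 7 of 8 cases, *Ankrd1* being the exception. Without *Ankrd1*, which a minimum mean of 50 normalised counts removes, the medians were −0.15 and −0.40. Genes at least as abundant as *Msln* had intervals below 0 more often than above, in 43.2% against 29.6% at 48 h. At 72 h it was 35.1% against 28.7%, and a median over these abundant genes was not computed.

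**Figure D1:**
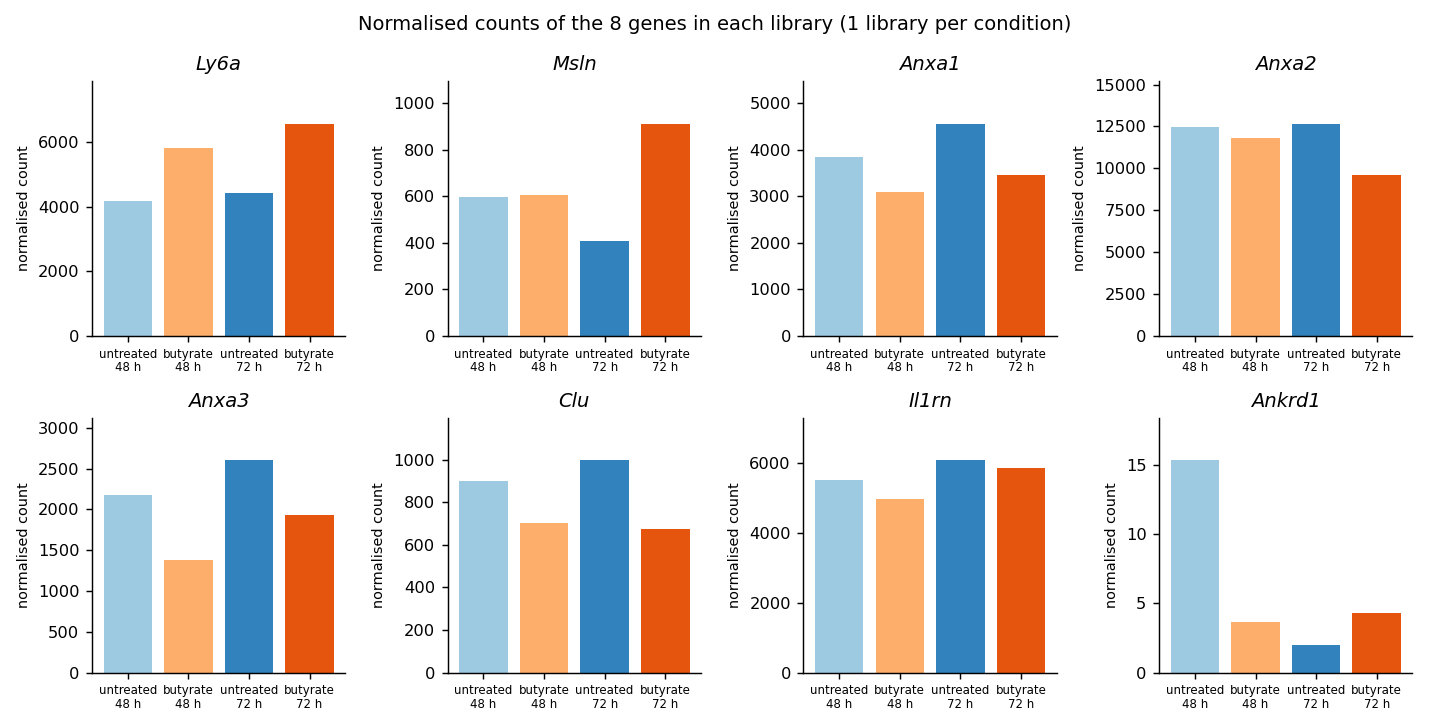
Normalised counts (vertical axis, linear from 0, a separate scale for each gene) of the 8 genes in the untreated and butyrate-treated libraries at 48 h and 72 h; each bar is 1 library, so there are no error bars. Both butyrate bars of *Ly6a* are above both untreated bars, both butyrate bars of *Anxa1*, *Anxa3* and *Clu* are below both untreated bars, and *Ankrd1* stays under 16 normalised counts.

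*Ly6a* encodes a small GPI-anchored surface protein and lies at chr15:74994877-74998031 on the minus strand (GENCODE, GRCm38). At 48 h it had 4087 counts untreated against 6433 with butyrate, and at 72 h it had 4498 against 6096, that is, 4179, 5837, 4441 and 6584 normalised counts. Both butyrate libraries were above both untreated libraries. The log2 fold change stood at 0.48 (0.43 to 0.54) for 48 h and 0.57 (0.51 to 0.62) for 72 h, which placed *Ly6a* at or above 84.0% and 90.1% of tested genes. The 2 effects differed by 0.09 (0.01 to 0.17 by a Wald interval on the counts), a small difference beside the effects themselves. From 48 h to 72 h the gene changed by 0.09 without and 0.17 with butyrate, and the former was 0.0096 with total count scaling.

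*Ly6a* belongs to a cluster of similar genes, and of its 1259 transcript 31-mers, the word length on which kallisto assigns reads by default, 31.9% also occur in transcripts of other genes. Of these, *Ly6c1* shared the most, 276. The 9 genes with shared 31-mers together had 1086 and 1797 counts at 48 h, then 1145 and 1764 at 72 h. When they were added to *Ly6a*, the log2 fold change stood at 0.50 (0.45 to 0.55) for 48 h and 0.61 (0.56 to 0.66) for 72 h. *Ly6a* held most of this sum, and its normalised counts with butyrate alone exceeded the untreated sum at both times. The sum was therefore bound to be higher with butyrate, and the sharing of reads was not tested by it. This sum was chosen after seeing the data.

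The relatives of *Ly6a* were looked at as a list of 13 Ly6 and related genes, of which 7 passed the filter. Their median was 0.18 at 48 h (0.75 with a minimum mean of 50 normalised counts) and 0.47 at 72 h. *Ly6c1* had 203 and 690 counts at 48 h, then 272 and 651 at 72 h, log2 fold changes of 1.59 (1.36 to 1.83) and 1.39 (1.18 to 1.60). *Ly6d* was higher by 0.94 (0.68 to 1.21) and 0.93 (0.63 to 1.24). The abundant *Ly6e* differed by only 0.16 and 0.11. *Lypd6b* went the other way, at −0.58 (−1.31 to 0.10) and −1.17 (−2.01 to −0.45). *Lypd8*, with 15136 to 36478 counts the most abundant of them, stood at 0.75 (0.72 to 0.77) and −0.38 (−0.41 to −0.35). In all, 4 of the 7 had intervals above 0 at both times and none had intervals below 0 at both, beside 12.9% and 13.6% of all tested genes. The fourth besides *Ly6c1*, *Ly6d* and *Ly6e* was *Ly6g*, at 0.18 and 0.55. *Ly6c1* and *Ly6g* share 276 and 11 of the 31-mers of *Ly6a*, and whether reads of *Ly6a* were assigned to them was not tested. *Lypd8* and *Ly6g* were singled out with their values already known.

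*Ly6a* is also expressed by endothelial and blood cells. The 6 endothelial marker genes summed to between 34.8 and 58.3 normalised counts in a library, only *Pecam1* passed the filter, and *Cdh5* and *Emcn* had at most 1 count anywhere. The 10 immune marker genes summed to between 44.5 and 71.3, only *Itgam* passed the filter, and *Adgre1* was at 0 in every library. The macrophage receptor gene *Csf1r* had 1 and 2 counts at 48 h, but 0 untreated against 16 with butyrate at 72 h. The 10 fibroblast and smooth muscle genes summed to between 199 and 256, with *Col3a1* and *Lum* at 0. The part of such cells in the *Ly6a* result was not tested.

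*Msln* encodes mesothelin, a GPI-anchored glycoprotein of mesothelial cells that is also seen in repairing epithelium, and lies at chr17:25748613-25754378 on the minus strand. At 48 h it had 583 counts untreated against 670 with butyrate, and at 72 h 412 against 846. The normalised counts were 596 and 608, then 407 and 914, so that the libraries were level at 48 h and far apart at 72 h. The log2 fold change stood at 0.03 (−0.13 to 0.19) for 48 h and 1.17 (1.00 to 1.34) for 72 h. The effects at the 2 times differed by 1.14 (0.90 to 1.37 by a Wald interval), the widest gap among the 7 members that passed the filter. It was made up of both arms, since *Msln* changed over time by −0.55 (−0.74 to −0.37) in untreated and by 0.59 (0.44 to 0.74) in butyrate-treated cultures. With single cultures, a time-dependent effect of butyrate cannot be told apart from any other dissimilarity of those cultures.

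Because *Msln* marks mesothelium, 7 other mesothelial genes were examined, and 3 passed the filter. *Upk3b* had 7 and 28 counts at 48 h, then 2 and 14 at 72 h, *Lrrn4* had 0 and 17, then 2 and 14, and *Upk1b* had 24 and 24, then 25 and 8. *Wt1* and *Muc16*, the latter the binding partner of mesothelin, had at most 3 counts in a library. The normalised counts of the 7 genes summed at 48 h to 34.8 untreated against 69.0 with butyrate, and at 72 h to 30.6 against 38.9. *Upk3b* and *Lrrn4* were thus higher with butyrate at both times, whereas *Msln* was level at 48 h. The part of mesothelial cells in the *Msln* result was not tested.

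**Figure D2:**
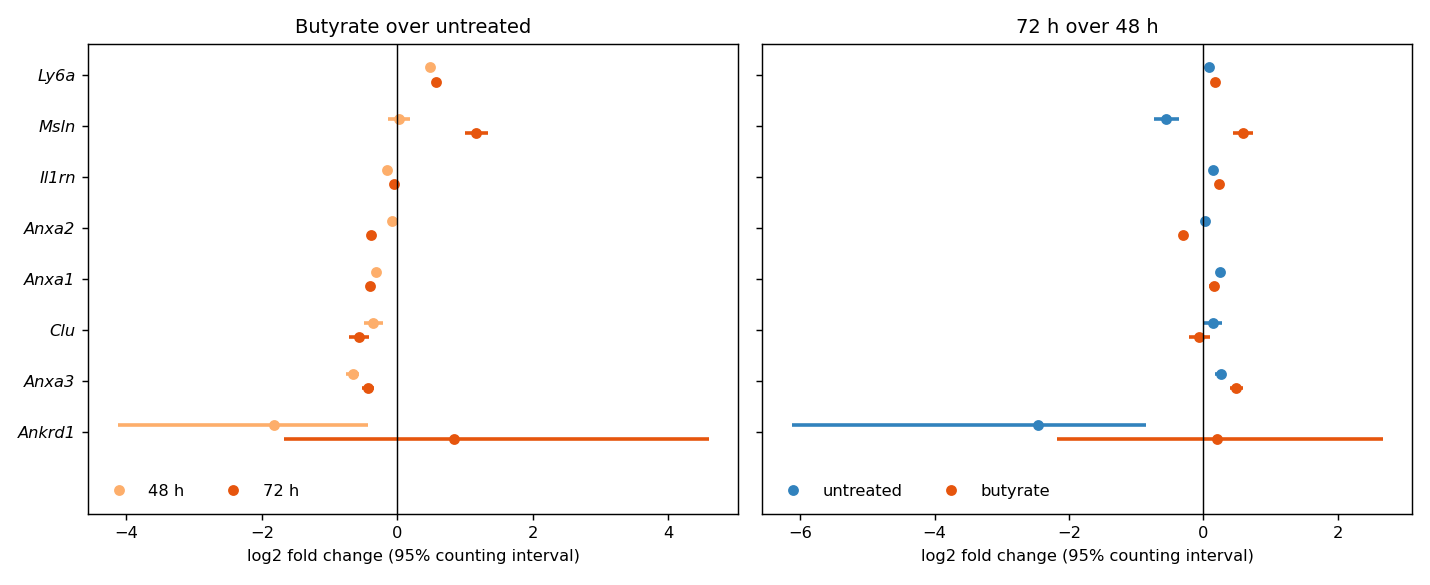
Log2 fold changes of the 8 genes (points) with 95% counting intervals (lines), for butyrate over untreated at 48 h and 72 h on the left and for 72 h over 48 h in untreated and butyrate-treated cultures on the right. *Ly6a* is right of 0 at both times and *Anxa1*, *Clu* and *Anxa3* are left of 0, *Msln* moves from 0.03 to 1.17, and the lines of *Ankrd1*, which rest on 2 to 15 counts, span several log2 units.

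Of the 3 annexins, *Anxa1* and *Anxa3* were lower with butyrate at both times, and *Anxa2* was nearly level at 48 h and lower at 72 h. *Anxa1*, an annexin known for ending inflammation and aiding wound closure, lies at chr19:20373428-20390944 on the minus strand. It had 3759 and 3406 counts at 48 h, then 4617 and 3193 at 72 h, or 3844, 3090, 4559 and 3449 normalised counts. Both butyrate libraries were below both untreated ones, with log2 fold changes of −0.31 (−0.38 to −0.25) and −0.40 (−0.47 to −0.34).

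*Anxa2*, which works as a complex with S100a10 at the cell membrane, lies at chr9:69453620-69491795 on the plus strand. Its counts of 12195 and 13013 at 48 h, then 12838 and 8911 at 72 h gave 12470, 11806, 12676 and 9624 normalised counts. The first 3 of these libraries lay close together, and the butyrate library at 72 h stood below them. The log2 fold change stood at −0.08 (−0.11 to −0.04) for 48 h and −0.40 (−0.44 to −0.36) for 72 h. The difference between the times was −0.32 (−0.37 to −0.27 by a Wald interval).

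*Anxa3*, at chr5:96793339-96845966 on the plus strand, is an annexin of less settled function. Its counts were 2123 and 1515 at 48 h, then 2636 and 1789 at 72 h, or 2171, 1375, 2603 and 1932 normalised counts. It had the largest lower value at 48 h among the members that passed the filter, at −0.66 (−0.76 to −0.56), and was at or above 7.15% of tested genes. At 72 h the change was −0.43 (−0.52 to −0.34). Over time *Anxa3* was higher at 72 h in both arms, by 0.26 (0.18 to 0.34) untreated and 0.49 (0.39 to 0.59) with butyrate.

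The epithelial marker genes were lower with butyrate at 72 h too. Their median was 0.02 at 48 h and −0.21 at 72 h, when 9 of 10 had intervals below 0. Over all tested genes the interval lay above 0 for 29.3% and below 0 for 31.3% at 48 h, and for 25.9% and 26.4% at 72 h. Among the 6387 genes at least as abundant as *Msln* these shares were 29.6% and 43.2% at 48 h and 28.7% and 35.1% at 72 h, so that an interval on 1 side of 0 is common at this depth. The values of *Anxa1*, *Anxa2*, *Anxa3* and *Clu* at 72 h were all below that median, and the part in them of what moved the epithelial markers was not tested.

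The rest of the annexin family and the S100 partners differed in direction between the times. Of 11 listed genes, 10 were in the table used here, 9 passed the filter, and their median was 0.13 at 48 h and −0.10 (−0.045 with total count scaling) at 72 h. Intervals lay above 0 for 6 and below 0 for 2 of the 9 at 48 h, but above 0 for 1 and below 0 for 7 at 72 h, where the shares just given apply. *Anxa8* was lower at both times, at −1.37 (−1.59 to −1.16) and −0.84 (−1.03 to −0.64), and so was *Anxa5*, at −0.26 and −0.75, singled out with its values already known. *Anxa6*, a larger annexin with a double core, had 141 counts without and 1277 with butyrate at 48 h, then 215 and 368 at 72 h. Its log2 fold changes of 3.00 (2.75 to 3.27) and 0.90 (0.66 to 1.15) were the highest in this list. *Anxa9* was higher by 2.20 (1.57 to 3.00) and 0.62 (−0.03 to 1.33). *S100a10*, the partner of *Anxa2*, changed by 0.58 (0.52 to 0.64) at 48 h and −0.08 (−0.15 to −0.01) at 72 h, and *S100a11*, which binds *Anxa1*, by 0.25 (0.22 to 0.29) and −0.15 (−0.18 to −0.11). Both partners were thus higher at 48 h, when *Anxa1* was lower and *Anxa2* nearly level.

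*Clu* encodes clusterin, a secreted chaperone that marks the rare "revival" stem cells of injured intestine, and lies at chr14:65968483-65981547 on the plus strand. It had 879 and 774 counts at 48 h, then 1010 and 624 at 72 h, or 899, 702, 997 and 674 normalised counts, with both butyrate libraries below both untreated ones. The log2 fold change stood at −0.36 (−0.50 to −0.22) for 48 h and −0.56 (−0.71 to −0.42) for 72 h, the lowest of the members at 72 h and at or above 8.92% of tested genes. *Clu* differed little over time, by 0.15 (0.02 to 0.28) untreated, which was 0.072 with total count scaling, and by −0.06 (−0.21 to 0.09) with butyrate.

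*Il1rn*, at chr2:24336853-24351494 on the plus strand, encodes the interleukin-1 receptor antagonist, which occupies the receptor Il1r1 without signalling. It was the steadiest member, its highest library being 1.22 times its lowest. Counts were 5380 and 5472 at 48 h, then 6155 and 5408 at 72 h, or 5501, 4965, 6077 and 5841 normalised counts. With butyrate the log2 fold change at 48 h was −0.15 (−0.20 to −0.09), followed by −0.06 (−0.11 to −0.0043) at 72 h, and the latter was −0.0051 with scaling to the total count.

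The receptor itself differed far more than its antagonist. Among 12 interleukin-1 family genes, 8 of which passed the filter, *Il1r1* had 329 counts without and 90 with butyrate at 48 h, then 449 and 138 at 72 h. The log2 fold changes of *Il1r1* were thus −2.03 (−2.40 to −1.70) and −1.57 (−1.86 to −1.29). *Il33*, an alarmin cytokine, was higher by 1.72 (0.75 to 3.07) and 1.87 (0.94 to 3.15), on 9 and 36 counts at 48 h, then 10 and 36 at 72 h. *Il18* was higher at 48 h by 0.86 (0.65 to 1.07) and level at 72 h, at 0.04 (−0.19 to 0.26). *Il1a* and *Il1b*, the agonists that *Il1rn* opposes, were scarce. *Il1a* had between 14 and 45 counts, with differences whose intervals included 0 at both times, and *Il1b* had no count in any library, which allows up to 3 counts in each. Elsewhere in the family, *Il1f9*, the older symbol of *Il36g*, had at most 13 counts, with changes of −0.27 (−1.55 to 0.96) and −1.32 (−4.98 to 0.71).

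*Ankrd1*, at chr19:36111961-36120099 on the minus strand, encodes an ankyrin repeat protein found in nucleus and sarcomere. At 48 h it had 15 counts untreated against 4 with butyrate, and at 72 h 2 against 4. Only the untreated library at 48 h stood clear of the others. The log2 fold change stood at −1.82 (−4.13 to −0.43) for 48 h and 0.84 (−1.67 to 4.60) for 72 h, so that counts of this size could not show a difference at 72 h. In untreated cultures it was lower at 72 h than at 48 h by a log2 fold change of −2.46 (−6.13 to −0.85). At such counts the pseudocount weighs on the value. With a pseudocount of 5 the changes were −1.24 and 0.42 with butyrate at 48 h and 72 h, and −1.54 over time in untreated cultures.

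A change of at least 2-fold was seen in 1 of 8 members at 48 h, *Ankrd1*, where 10.0% of all tested genes differed as much in either direction. *Ankrd1* did not pass the filter and is not among those genes. At 72 h it was 1 of 8, *Msln*, beside 8.31% of all genes. Between 48 h and 72 h it was 1 of 8 in untreated cultures, again *Ankrd1*, beside 4.49% of genes, and 0 of 8 in butyrate-treated cultures, beside 8.62%. A count of 0 or 1 among 8 genes is near these background shares. By the weaker criterion of a counting interval on 1 side of 0 at both times, 1 of 8 members was higher with butyrate (*Ly6a*), beside 12.9% of all tested genes, and 5 of 8 were lower (*Anxa1*, *Anxa2*, *Anxa3*, *Clu* and *Il1rn*), beside 13.6%. Genes with many counts meet this criterion more readily. Among the 6387 genes at least as abundant as *Msln*, the member with the fewest normalised counts among those that passed the filter, 13.2% were higher and 20.4% were lower at both times. This narrower background was chosen after seeing the data. The upper bound of *Il1rn* at 72 h was within 0.01 of 0, so its place in this count is marginal.

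**Figure D3:**
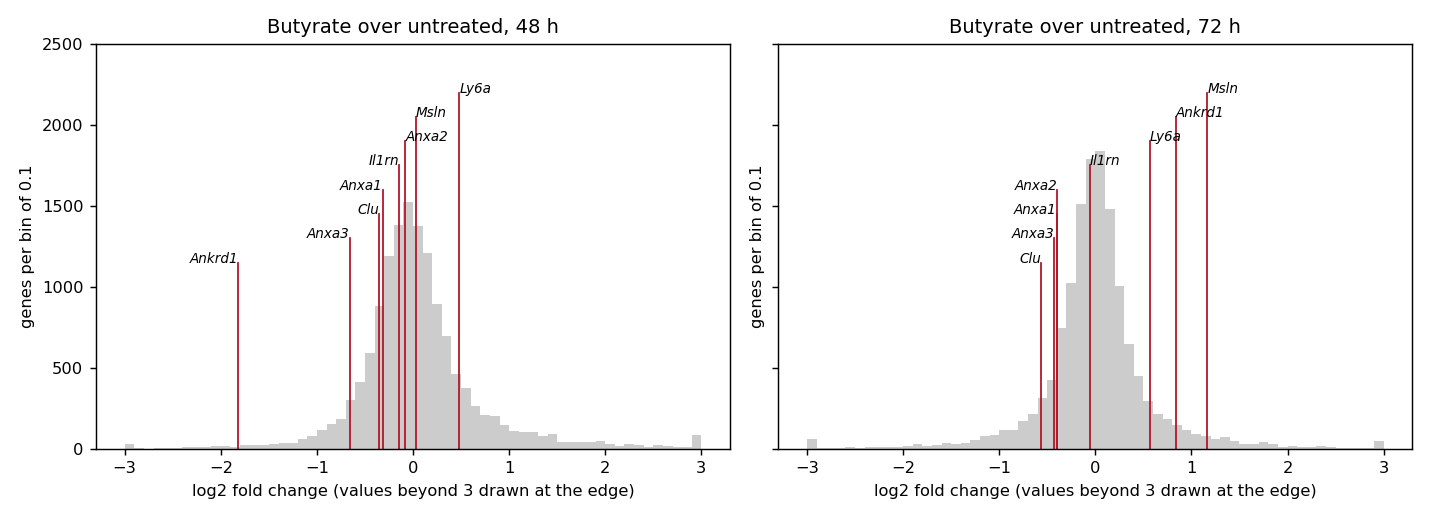
Distribution of the log2 fold change of butyrate over untreated (horizontal axis) over the 13979 tested genes (grey, genes per bin of 0.1) at 48 h and 72 h, with the 8 genes marked by red lines whose heights carry no value. At 72 h *Clu*, *Anxa3*, *Anxa1* and *Anxa2* stand together between −0.56 and −0.40, while *Ly6a* and *Msln* stand at 0.57 and 1.17.

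Other genes of the regenerative and fetal-like state divided too. Of 16 further genes, 15 passed the filter, 6 had intervals above 0 at both times (12.9% of all tested genes) and none had intervals below 0 at both (13.6%). By time, 10 were above and 2 below 0 at 48 h, beside 29.3% and 31.3% of all tested genes. At 72 h 7 were above and 5 below, beside 25.9% and 26.4%. Their median was 0.26 at 48 h and 0.15 at 72 h, and the latter was 0.018 with a minimum mean of 50 normalised counts and 0.083 with no filter. *Gja1*, a connexin, was higher by 1.10 (0.28 to 2.09) and 1.46 (0.70 to 2.39), on 16 and 40 counts at 48 h, then 18 and 47 at 72 h. *Sprr1a*, named after its values were seen, was higher at 48 h by 0.53 (0.46 to 0.61) and lower at 72 h by −0.90 (−0.97 to −0.84) on the log2 scale. *Ly6c1*, *Ly6d* and *Il33*, already described, belong to this list as well.

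YAP/TEAD targets other than *Ankrd1* were lower at 48 h and higher at 72 h in the median. Of 21 genes, 18 passed the filter, and the median was −0.22 at 48 h but 0.16 at 72 h (0.29 with a minimum mean of 50 normalised counts and 0.32 with no filter). At 48 h 10 of the 18 had intervals below 0 (31.3% of all tested genes) and 2 above (29.3%), and at 72 h 3 were below (26.4%) and 8 above (25.9%). *Ccn1*, a matricellular protein gene and classical YAP target, had 369 counts without and 101 with butyrate at 48 h, then 359 and 633 at 72 h, log2 fold changes of −2.03 (−2.37 to −1.72) and 0.95 (0.76 to 1.14). *Amotl2*, an inhibitor of YAP that YAP itself induces, went from −0.91 (−1.17 to −0.66) to 0.33 (0.18 to 0.49), and *Ccn2* from −0.11 (−0.40 to 0.19) to 0.71 (0.49 to 0.93). These 3 were named after their values were seen. *Crim1* was lower at both times, at −0.69 (−0.84 to −0.54) and −0.63 (−0.76 to −0.50), and *Nt5e* by −0.66 (−1.71 to 0.29) and −1.30 (−2.76 to −0.18) on at most 23 counts. *Tgfb2* stood at 1.01 and 0.67 on at most 18 counts, with intervals that included 0.

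The Hippo pathway genes spanned a narrower range, from −0.60 to 0.64 at 48 h and from −0.17 to 0.89 at 72 h. All 15 passed the filter. Their median was −0.20 at 48 h but 0.10 at 72 h, and none reached a 2-fold difference at either time, beside 10.0% and 8.31% of all tested genes. Intervals lay above 0 for 3 and below 0 for 9 of the 15 at 48 h, beside 29.3% and 31.3% of all tested genes. At 72 h they lay above 0 for 8 and below 0 for 2, beside 25.9% and 26.4%. Among the genes at least as abundant as *Msln* the shares were 29.6% and 43.2% at 48 h and 28.7% and 35.1% at 72 h. *Yap1* had between 1977 and 2366 counts and changed by 0.06 (−0.02 to 0.15) and 0.26 (0.18 to 0.35). The TEAD genes were not alike. *Tead1*, the most abundant by counts, stood at −0.23 (−0.32 to −0.14) and 0.18 (0.10 to 0.26), and *Tead3* at −0.54 (−0.71 to −0.37) and 0.04 (−0.12 to 0.20), both given after their values were seen. *Tead2* and *Tead4* were higher at both times, by 0.46 (0.32 to 0.60) and 0.89 (0.75 to 1.03) for *Tead2* and by 0.64 (0.39 to 0.91) and 0.34 (0.11 to 0.57) for *Tead4*. *Sav1*, an adaptor of the Hippo kinases, was lower by −0.46 and −0.17, and the kinase gene *Lats2*, itself a YAP target, changed by −0.60 (−0.91 to −0.29) and −0.14 (−0.40 to 0.12).

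Crypt stem cell genes, which in the injured gut tend to fall as the fetal-like state appears, were compared as the adult counterpart. The median of the 6 genes was −0.12 at 48 h but 0.66 at 72 h. At 48 h 1 interval lay above and 4 below 0, beside 29.3% and 31.3% of all tested genes and 29.6% and 43.2% of the abundant ones. At 72 h 6 of 6 lay above 0, beside 25.9% of all tested genes and 28.7% of the abundant ones. *Lgr5* changed by −0.94 (−0.99 to −0.88) and 0.79 (0.74 to 0.84) and *Smoc2* by −0.31 and 0.70, both named after their values were seen, while *Ascl2* was higher at both times, by 0.19 (0.01 to 0.37) and 0.47 (0.20 to 0.75). At 72 h, when these genes were higher with butyrate, *Clu*, *Anxa1*, *Anxa2* and *Anxa3* were lower and *Ly6a* and *Msln* were higher. At 48 h, when 4 of the 6 had intervals below 0, *Clu*, *Anxa1* and *Anxa3* were lower too, at −0.36, −0.31 and −0.66. *Anxa2* and *Msln* were then nearly level and *Ly6a* was higher, at 0.48.

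**Figure D4:**
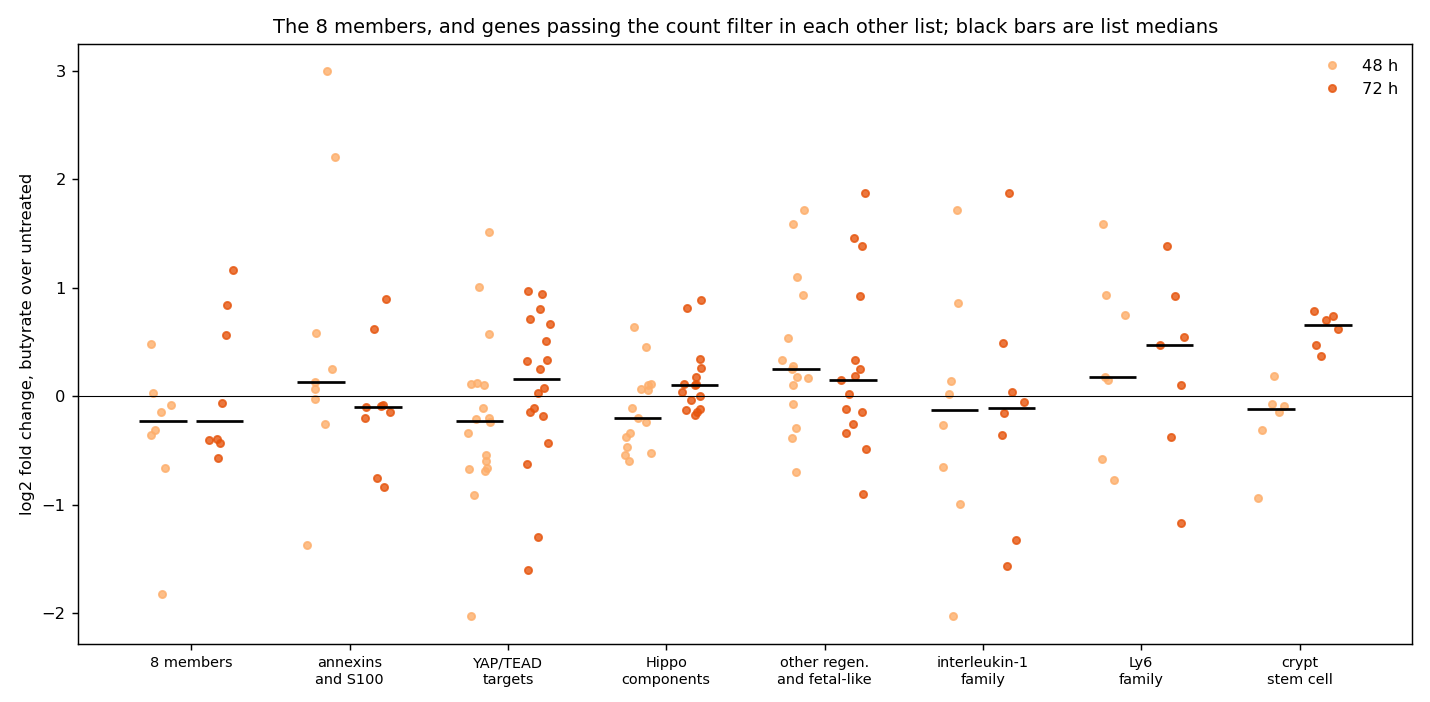
Log2 fold change of butyrate over untreated (vertical axis) at 48 h and 72 h for the 8 members, *Ankrd1* included, and for the genes of each other list that passed the count filter; points are genes, spread sideways for legibility, and black bars are medians. The members' medians are −0.23 at both times, the YAP/TEAD targets go from −0.22 to 0.16 and the crypt stem cell genes from −0.12 to 0.66.

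Over time in culture the member that differed most was *Ankrd1* in untreated cultures, at −2.46, and *Msln* in butyrate-treated cultures, at 0.59. The median change of the 8 members from 48 h to 72 h was 0.12 (0.038 with total count scaling) in untreated and 0.19 in butyrate-treated cultures. *Anxa1* was higher at 72 h in both, by 0.25 (0.18 to 0.31) and 0.16 (0.09 to 0.23), and *Il1rn* by 0.14 (0.09 to 0.20) and 0.23 (0.18 to 0.29). Scaled to the total count, the untreated changes were 0.17 for *Anxa1* and 0.066 for *Il1rn*. *Anxa2* was level untreated, at 0.02 (−0.01 to 0.06), and lower with butyrate, by −0.29 (−0.33 to −0.26) on the log2 scale. These comparisons use the same 4 libraries as the comparisons of butyrate with untreated and are not separate evidence.

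For each of the 7 members that averaged 100 or more normalised counts, the gene with the most similar profile over the 4 libraries was found among 10786 genes, as the Euclidean distance between centred log2 values. For *Ly6a* it was *Cdt1*, at a distance of 0.04, with log2 fold changes of 0.53 and 0.56. For *Anxa1* it was *Zzef1*, for *Anxa2* *Dolpp1*, for *Anxa3* *Nipal1*, for *Clu* *Slc31a2* and for *Il1rn* *Zfp91*, at distances of 0.01 to 0.04. No gene came as close to *Msln*, whose nearest, *Plpp3*, lay at 0.14. The median distance to all genes was between 0.37 and 0.89, and with 4 libraries close profiles are common.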

How the data were processed

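Poly(A) RNA libraries of mouse colonic organoids were sequenced, 1 library for each of 4 conditions. The authors deposited whole-number counts per gene, without normalisation or gene filter. Transcripts were quantified with kallisto 0.44.0 on GRCm38.p6 (submitters' processing notes) and summed to genes with tximport, so counts are rounded estimates.

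From these, DESeq2 1.42.0 size factors and edgeR 4.0.16 TMM factors were computed in R 4.3.3, on genes exceeding 10 counts in 2 or more libraries, as in the study. Remaining steps used scipy 1.17.1, matplotlib 3.10.9, pandas 2.3.3 and numpy 2.4.6 under Python 3.11.15. Log2 fold changes used a pseudocount of 1, and their intervals were exact at 95%. Differences of log2 fold changes between the times had Wald intervals at 95%. No model was fitted. Exon lengths and positions came from GENCODE vM21 for all 8 members, and 31-mers from its transcripts, which may differ from those the authors used. Members and lists were chosen with earlier results of these data known. Named genes were all members, fixed partners and relatives, and up to 3 genes per list that changed most in 1 direction at 48 h and 72 h, and others are stated as chosen later. Functions were tested on simulated data. Alternatives were TMM, total count scaling with and without mitochondrial genes, a pseudocount of 5, thinning and other filters. *Anxa13* was not analysed here, and some genes of the lists are not reported here by name.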

Additional observations from a re-analysis of the deposited data

Results flagged for a closer look

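Among the members and the companion lists, 43 named genes that passed the count filter were examined, leaving out cell type markers and genes named for a similar profile. Of these, 9 differed in opposite directions between butyrate and untreated cultures at the earlier and the later time, and neither counting interval included 0. Of the 9, all but *S100a10* and *S100a11* were named after their values were seen, so the count says nothing of how common the pattern is. The change of the log2 fold change from 48 h to 72 h was 2.98 for *Ccn1*, 1.73 for *Lgr5*, 1.24 for *Amotl2*, 1.01 for *Smoc2*, 0.41 for *Tead1*, −0.40 for *S100a11*, −0.66 for *S100a10*, −1.12 for *Lypd8* and −1.44 for *Sprr1a*. With 1 library per condition, these differences between the times were not tested against replicate error.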

How the results depend on the processing

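The labels give no replicates within a condition, so there were none to pair or to leave out. A fit of treatment with time as a block, which would take the difference between the times as error, was not run. Of 160 recomputed log2 fold changes of single members under 5 settings, 155 stayed inside their counting intervals, 5 moved outside them and 0 of those with an interval excluding 0 changed sign. All 5 moved with total count scaling, which shifted the median of all genes by up to 0.08 on the log2 scale. The untreated change of *Anxa2* over time, whose interval included 0, was −0.05 there. Total count scaling gave a members' median of −0.18 at 72 h and of 0.038 over time in untreated cultures, and −0.045 for the annexin relatives at 72 h.

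Requiring a mean normalised count of at least 50 left out *Ankrd1*. The members' median became −0.15 at 48 h and −0.40 at 72 h, and 0 members reached 2-fold at 48 h or over time in untreated cultures. That filter gave medians of 0.18 for the other regenerative genes and 0.75 for the Ly6 family at 48 h, and 0.29 for YAP/TEAD targets at 72 h. The interleukin-1 family median of −0.12 at 48 h and −0.10 at 72 h became −0.26 and −0.059 with it, and 0 and −0.053 with no filter. With the minimum mean of 50, genes at least 2-fold different were 638 at 48 h and 458 at 72 h, and 186 and 485 over time in untreated and butyrate-treated cultures, against 1400, 1162, 627 and 1205. With no filter they were 4329, 4005, 3224 and 4271, the Ly6 median at 48 h was 0.93 and the YAP/TEAD median at 72 h 0.32. A pseudocount of 5 gave 396 over time in untreated cultures. Fewer or more low-count genes are tested under these filters.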
